A study of Mus musculus with 8 samples.

Results

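The genes examined are 34 genes of the unfolded protein response and of protein folding in the endoplasmic reticulum (ER), taken from a list of names that runs from the stress sensors to the chaperones and degradation factors they control. They were found by gene name in a table of 54532 genes, where they occupied 35 rows, because Ddit3 is listed under 2 identifiers. Between infarct fibroblasts labelled FTbR2KO and their TbR2fl/fl controls, 0 of the 33 members that could be tested passed an adjusted p of 0.05 in limma, which called 0.0171% of all 11667 genes tested. At an unadjusted p under 0.05 limma gave 2 of the 33 members, against 8.61% of all genes tested: Sel1l, and Creb3l3, which passed the filter on low values only through the 4 controls, where it was higher. A limma voom fit on recovered reads also called 0 members. The members nevertheless differed between single libraries: Hspa5, the main chaperone of the ER, ranged from 128 to 367 FPKM, with 2 of the 4 libraries labelled FTbR2KO above every control and the other 2 inside the control range. Most chaperones, the disulfide isomerases and the secreted stress proteins followed Hspa5 from library to library (r of 0.88 to 0.99, Dnajb9 at 0.65). The sensor Ern1 and the PERK-branch genes Ddit3, Trib3 and Ppp1r15a had correlations with Hspa5 between -0.08 and 0.20.

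RNA was measured in mouse cardiac fibroblasts positive for PDGFRα, a surface receptor of fibroblasts, which were sorted from infarcts 7 days after a coronary artery was occluded and were not cultured. FTbR2KO (4 libraries, numbered 1 to 4) denotes mice with fibroblast-specific loss of TbR2, the TGF-β type 2 receptor, and TbR2fl/fl (4 libraries, numbered 5 to 8) denotes mice that carry the floxed gene. Tamoxifen, which brings about the deletion, was injected intraperitoneally in both groups. The promoter that drives the deletion in fibroblasts and the age and sex of the mice could not be read from the labels. The labels also do not say that each library came from its own mouse, so a p-value here reflects library-to-library spread, which may be technical. Values are FPKM, fragments per kilobase of transcript scaled to a total for each library, a scale on which genes of different length can be compared.

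Proteins that will be secreted or placed in a membrane are folded inside the ER, and a fibroblast that lays down scar collagen sends a heavy load through it. When unfolded proteins build up, the chaperone BiP (encoded by Hspa5) is drawn away from 3 sensors in the ER membrane: IRE1α (Ern1), PERK (Eif2ak3) and ATF6. IRE1α splices Xbp1 mRNA so that it encodes an active transcription factor, PERK phosphorylates eIF2α and thereby favours translation of ATF4, and ATF6 is cut in the Golgi to free its transcription factor part. The factors then raise genes for chaperones, disulfide isomerases and ER-associated degradation (ERAD), which pulls misfolded proteins back into the cytosol. Gene-level FPKM shows how much RNA of a gene is present, and it shows neither the splicing of Xbp1, nor the translation of Atf4, nor the cleavage of ATF6.

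The element through which ATF6 and XBP1 act is written in the promoters of many of these genes, and it is shown here because the genes that hold it can be set beside the genes that varied together. Promoters of 300 bases, 250 before and 50 after the start site, were taken from RefSeq on the mouse build GRCm38.p6 and were found for 29 of the 34 members. The ER stress response element (CCAAT, then 9 bases, then CCACG, on either strand) occurred in 9 of these 29 genes, or 31.0%, and in 37 of 27025 genes searched, or 0.137%. This share, and those of the other motifs over all genes, leave out a chromosome that holds no member. Each line gives the element with 15 bases on either side, 5′ to 3′ on the strand of the gene, with both arms of the element in capitals.
Hspa5 (chr2:34772010-34772058, plus strand): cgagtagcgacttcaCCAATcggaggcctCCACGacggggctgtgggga
Hsp90b1, farther element (chr10:86705623-86705671, minus strand): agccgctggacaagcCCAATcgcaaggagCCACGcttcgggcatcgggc
Hsp90b1, nearer element (chr10:86705518-86705566, minus strand): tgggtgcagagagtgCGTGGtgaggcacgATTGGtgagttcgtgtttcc
Calr (chr8:84847060-84847108, minus strand): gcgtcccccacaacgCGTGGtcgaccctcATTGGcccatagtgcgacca
Canx (chr11:50325785-50325833, minus strand): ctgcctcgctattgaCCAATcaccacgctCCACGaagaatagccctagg
Dnajc3 (chr14:118937812-118937860, plus strand): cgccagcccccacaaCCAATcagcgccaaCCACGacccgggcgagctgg
Pdia6 (chr12:17266476-17266524, plus strand): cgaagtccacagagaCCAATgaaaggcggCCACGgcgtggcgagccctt
Creld2 (chr15:88819505-88819553, plus strand): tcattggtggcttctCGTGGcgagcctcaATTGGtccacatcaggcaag
Syvn1 (chr19:6046517-6046565, plus strand): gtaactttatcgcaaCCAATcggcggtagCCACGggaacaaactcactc
Derl3 (chr10:75893227-75893275, plus strand): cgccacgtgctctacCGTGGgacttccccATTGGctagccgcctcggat
Hsp90b1 held the element 2 times, and in Calr, Creld2, Derl3 and the nearer copy of Hsp90b1 it lay on the strand opposite to the gene. The end nearest to the gene lay between 26 bases (Syvn1) and 194 bases (the farther copy of Hsp90b1) before the start site, and 47 bases before it in Hspa5. The whole 300-base window of Hspa5, with the same element in capitals, is the following.
Hspa5 promoter (chr2:34771840-34772139, plus strand): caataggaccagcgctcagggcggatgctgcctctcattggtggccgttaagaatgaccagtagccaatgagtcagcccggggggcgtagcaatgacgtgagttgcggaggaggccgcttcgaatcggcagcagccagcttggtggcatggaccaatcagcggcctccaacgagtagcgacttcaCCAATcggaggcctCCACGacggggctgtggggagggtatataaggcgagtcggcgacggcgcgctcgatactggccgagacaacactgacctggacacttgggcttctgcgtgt
A shorter form, ER stress response element II (ATTGG, then 1 base, then CCACG, on either strand), occurred in 2 of the 29 genes, Dnajb11 and Herpud1, or 6.90%, against 0.0444% of all genes searched. It is printed with the same flanks.
Dnajb11 (chr16:22857837-22857877, plus strand): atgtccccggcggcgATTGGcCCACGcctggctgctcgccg
Herpud1 (chr8:94386362-94386402, plus strand): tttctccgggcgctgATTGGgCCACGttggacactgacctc
In Herpud1 the shorter element ended 42 bases before the start site, and in Dnajb11 it lay after it. TGACGTGG, the core of the unfolded protein response element, was found on either strand in 0 of the 29 promoters and in 0.714% of all genes. TGATG, then 1 base, then AA, the core of the amino acid response element bound by ATF4, was found on either strand in 2 members, Herpud1 and Trib3 (6.90%), against 4.51% of all genes. A match describes the letters of these windows and is no measure of binding.

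The libraries held between 16088616 and 28731923 reads assigned to genes, as recovered from the FPKM values. FTbR2KO 1 and TbR2fl/fl 5 stood apart from the other 6 libraries: limma gave them the lowest sample weights, 0.55 and 0.381, against 0.885 to 2.96 for the others. Counts over the members and the pattern across libraries are therefore also given without them. Each title carries a sample code whose meaning the labels do not give: FTbR2KO 1 and TbR2fl/fl 5 carry the lowest codes of all, and FTbR2KO 2 and 3 carry neighbouring ones, next to that of TbR2fl/fl 7. Whether a code marks a litter, day or batch is not stated, so such a batch could not be tested. Tgfbr2, the targeted gene, went against the label, with 56.9 to 60.0 FPKM in the libraries labelled FTbR2KO and 40.3 to 49.6 FPKM in the controls, and a gene-level value cannot show the loss of an internal exon. All 8 fibroblast markers were present (Pdgfra 45.5 to 85.6 FPKM, Col1a1 3496 to 5338 FPKM). Plasma cells, which hold much of this machinery, were judged by 7 markers, of which Sdc1, also a fibroblast gene, stood at 39.9 to 60.5 FPKM and the other 6 at or below 0.275 FPKM, with Tnfrsf17 at 0. In RNA from sorted cells in bulk, fewer cells of a kind and less RNA per cell cannot be told apart.

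The 3 sensors were present at low and even levels. Atf6 (chromosome 1) was measured at 5.73, 7.74, 7.38 and 6.66 FPKM in FTbR2KO 1 to 4 and at 5.50, 5.47, 6.55 and 5.68 FPKM in TbR2fl/fl 5 to 8. Of the 4 libraries labelled FTbR2KO, 3 exceeded every control and FTbR2KO 1 did not. The log2 fold change of FPKM + 1 was 0.21 (SE 0.10, adjusted p = 0.591 in limma). Ern1 (chromosome 11), which encodes IRE1α, stood at 5.48, 5.37, 5.99 and 5.41 FPKM in FTbR2KO 1 to 4 and at 5.83, 4.65, 4.38 and 4.77 FPKM in TbR2fl/fl 5 to 8. TbR2fl/fl 5 lay among the FTbR2KO values and the other 3 controls lay below them all, with a log2 fold change of 0.16 (SE 0.086, adjusted p = 0.628 in limma). Eif2ak3 (chromosome 6), which encodes PERK, was at 8.98, 9.73, 10.1 and 9.23 FPKM in FTbR2KO 1 to 4 against 9.56, 8.85, 8.98 and 9.09 FPKM in TbR2fl/fl 5 to 8. The groups overlapped, and the log2 fold change was 0.053 with a 95% interval of -0.10 to 0.20, and 0.027 without FTbR2KO 3. The other eIF2α kinases, which answer viral RNA, amino acid shortage and haem shortage, gave log2 fold changes of 0.18 (Eif2ak2), 0.059 (Eif2ak4) and 0.045 (Eif2ak1), and 0 of 3 passed the test.

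Among the transcription factors, the mRNAs of the 3 best known effectors had nearly the same mean in both groups. Xbp1 (chromosome 11), the substrate of IRE1α, was measured at 37.7, 48.2, 53.9 and 42.4 FPKM in FTbR2KO 1 to 4 and at 33.6, 47.9, 51.5 and 46.1 FPKM in TbR2fl/fl 5 to 8. Atf4 (chromosome 15), the effector of PERK, was at 82.5, 86.6, 91.6 and 85.6 FPKM against 73.3, 94.5, 92.7 and 83.7 FPKM. Both genes were lowest in TbR2fl/fl 5 and their groups overlapped, with log2 fold changes of 0.029 (SE 0.15) and 0.015 (SE 0.10). Ddit3 (chromosome 10), which encodes CHOP, a factor tied to cell death under prolonged stress, was at 19.5, 16.2, 19.4 and 18.9 FPKM in FTbR2KO 1 to 4 and at 14.8, 24.5, 21.6 and 14.8 FPKM in TbR2fl/fl 5 to 8. The FTbR2KO values lay inside the control range, and the log2 fold change was -0.0045 (SE 0.16, adjusted p = 0.995 in limma). Another row named Ddit3, a model of 105 bases that lies wholly within the exons of the main one, had 0 reads in all 8 libraries and was not tested. Of the exon bases of the main Ddit3 model 10.9% are shared with other rows. These are the Ddit3 model of 105 bases on the same strand, and Mars and Gm4189 on the opposite strand. The part due to Mars and Gm4189 alone was not computed. No source used here gives the strand setting of the counting, so reads of such partners cannot be separated.

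The CREB3-like factors are membrane-bound relatives of ATF6. Creb3l1 and Creb3l2, which support secretion and collagen output in matrix-forming cells, were well above Atf6: Creb3l1 averaged 50.5 ± 2.56 FPKM (SD, n = 4) in the libraries labelled FTbR2KO and 49.2 ± 3.17 FPKM (SD, n = 4) in the controls. Creb3l2 averaged 61.6 ± 6.41 FPKM (SD, n = 4) and 60.6 ± 8.77 FPKM (SD, n = 4), respectively. Creb3l3 (chromosome 10, from 81084324 to 81098874, minus strand), known mainly from the liver, was near the detection limit, at 0.917, 0.840, 0.654 and 0.856 FPKM in FTbR2KO 1 to 4 and at 1.49, 1.61, 1.64 and 1.43 FPKM in TbR2fl/fl 5 to 8. All 4 values labelled FTbR2KO lay below all 4 control values, the 1 member with that order, against 1.89% of all genes tested. Its log2 fold change was -0.49 (SE 0.092), with an unadjusted p of 4.60e-04 and an adjusted p of 0.571 in limma. It was -0.85 with a pseudocount of 0.1 and -0.91 with voom, since a pseudocount of 1 shrinks so low a gene, and the reads behind it were 39 to 59 per FTbR2KO library and 101 to 137 per control. Creb3l3 passed the filter on low values only through the 4 controls, so its difference is given as a description.

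A pair of members act as brakes on the PERK branch. Ppp1r15a, which encodes GADD34, the subunit that leads a phosphatase back to eIF2α, averaged 65.3 ± 4.01 FPKM (SD, n = 4) in the libraries labelled FTbR2KO and 69.1 ± 18.6 FPKM (SD, n = 4) in the controls, whose values ran from 48.2 to 92.5 FPKM. Trib3, a pseudokinase that is induced by ATF4 and CHOP, averaged 1.75 ± 0.171 FPKM (SD, n = 4) and 1.75 ± 0.140 FPKM (SD, n = 4). Neither differed beyond its spread, with log2 fold changes of -0.045 (SE 0.18) and 2.8e-04 (SE 0.084).

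The 9 chaperones and co-chaperones differed widely between libraries. Hspa5 (chromosome 2, from 34771970 to 34777547, plus strand), whose product BiP binds unfolded chains, was measured at 157, 367, 342 and 180.2 FPKM in FTbR2KO 1 to 4 and at 128, 239, 210.1 and 211 FPKM in TbR2fl/fl 5 to 8. FTbR2KO 2 and 3 lay above every control, while FTbR2KO 1 and 4 lay within the controls and below 3 of them. The mean was 261 ± 108 FPKM (SD, n = 4) in the libraries labelled FTbR2KO and 197 ± 47.6 FPKM (SD, n = 4) in the controls, with a log2 fold change of 0.34 (SE 0.31, 95% interval -0.35 to 1.04, adjusted p = 0.759 in limma). The value was 0.15 without FTbR2KO 2, 0.56 without FTbR2KO 1, and 0.36 without FTbR2KO 1 and TbR2fl/fl 5 together.

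Hsp90b1 (chromosome 10), which encodes GRP94, the ER form of HSP90, was at 124, 241, 178 and 149 FPKM in FTbR2KO 1 to 4 and at 87.7, 147, 139.7 and 166 FPKM in TbR2fl/fl 5 to 8. The same 2 libraries, FTbR2KO 2 and 3, exceeded all controls, and the log2 fold change was 0.35 (SE 0.24, adjusted p = 0.695 in limma), or 0.16 without TbR2fl/fl 5 and 0.18 without FTbR2KO 2. Calr (chromosome 8), which encodes calreticulin, a chaperone for proteins that carry sugar chains, was at 213, 407, 354 and 266 FPKM against 196, 305, 282 and 328 FPKM. Here too FTbR2KO 2 and 3 were highest and TbR2fl/fl 5 lowest, with a log2 fold change of 0.14 (SE 0.23). Dnajc3 (chromosome 14), a co-chaperone of BiP, was at 37.3, 53.3, 48.4 and 36.4 FPKM against 29.3, 37.3, 37.4 and 38.4 FPKM. Its log2 fold change of 0.28 (SE 0.15, adjusted p = 0.605 in limma) was again one in which FTbR2KO 2 and 3 exceeded every control and FTbR2KO 1 and 4 did not exceed the highest control.

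The other 5 genes of this group were also highest in FTbR2KO 2 or 3. Hyou1, a relative of HSP70 that reloads BiP with nucleotide, averaged 21.7 ± 10.3 FPKM (SD, n = 4) in the libraries labelled FTbR2KO and 15.3 ± 3.23 FPKM (SD, n = 4) in the controls, with 33 FPKM in FTbR2KO 2 and 10.4 FPKM in TbR2fl/fl 5. Sdf2l1, a partner of the ER co-chaperones, averaged 13.4 ± 6.72 and 9.66 ± 3.13 FPKM (SD, n = 4 each), highest in FTbR2KO 3 and lowest in TbR2fl/fl 5, at 5.32 FPKM. Canx, the membrane-bound relative of calreticulin, ran from 46.2 to 101 FPKM between the same control and FTbR2KO 2, and Dnajb11, another co-chaperone of BiP, from 22.1 to 42.0 FPKM. Dnajb9, which returns IRE1α to its resting state with BiP, followed least, with 24.0 FPKM in FTbR2KO 3 and its lowest value, 13.7 FPKM, in FTbR2KO 4. The 9 log2 fold changes were all above 0, with a median of 0.28 and a range of 0.058 to 0.39, and 0 of 9 passed the test. The size of several changed with single libraries: without FTbR2KO 2 they were 0.15 for Hyou1, 0.18 for Sdf2l1, 0.10 for Canx and 0.18 for Dnajc3, and without TbR2fl/fl 5 they were 0.23, 0.13, 0.12 and 0.20. Hyou1 and Sdf2l1 were at 0.23 and 0.14 without FTbR2KO 3 and at 0.61 and 0.60 without FTbR2KO 1. For Dnajb9 the value of 0.19 was 0.066 without FTbR2KO 3 and 0.32 without FTbR2KO 4.

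**Figure D1:**
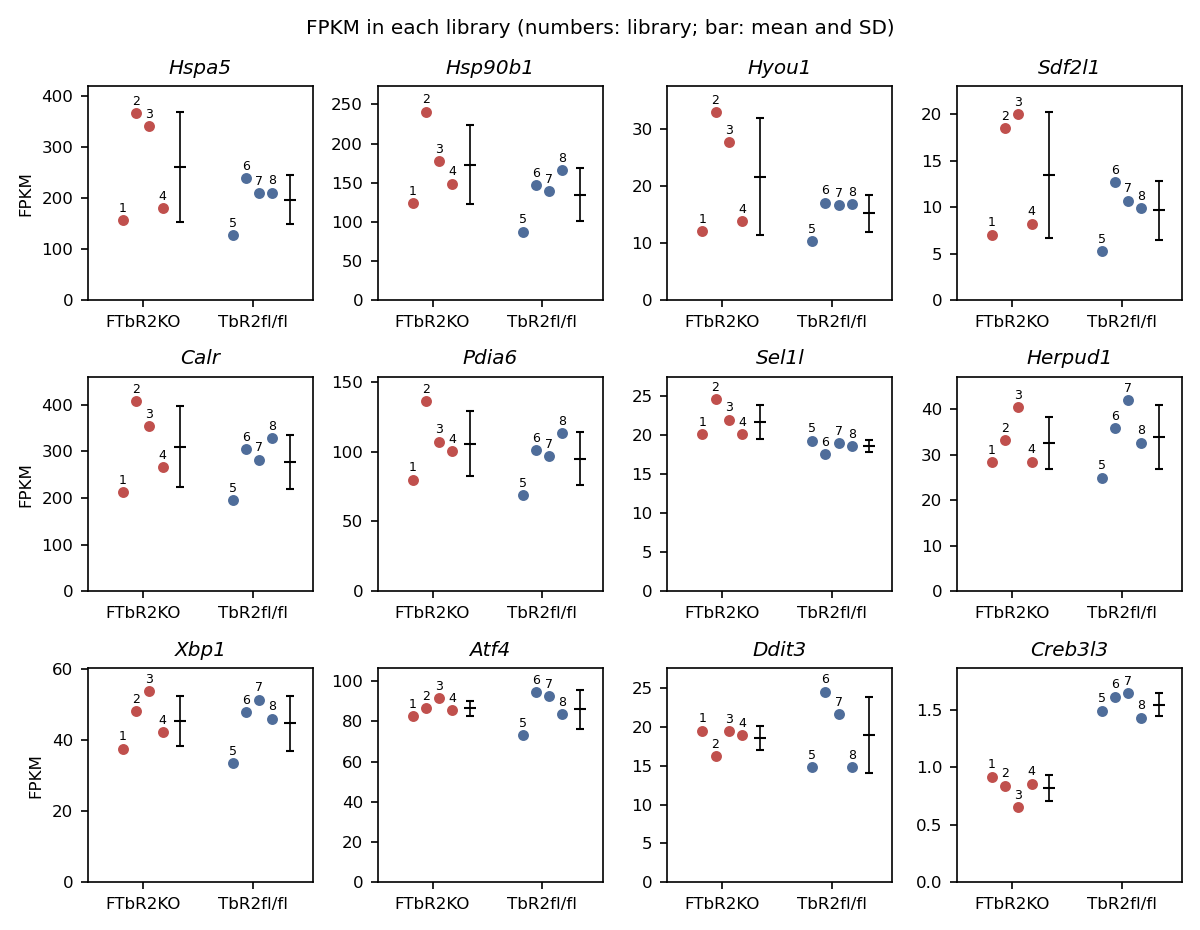
FPKM (vertical axes, each from 0) of 12 members in each library, numbered as in the labels, with the mean and SD of each group of 4 as a bar beside the points. In the chaperone genes FTbR2KO 2 and 3 lie above the controls while FTbR2KO 1 and 4 lie among them; the Sel1l and Creb3l3 groups do not overlap.

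Disulfide isomerases join the cysteines of folding proteins, and 3 of them were listed with 2 small proteins that stressed cells secrete. Pdia6 (chromosome 12) was at 79.8, 136, 107 and 100.1 FPKM in FTbR2KO 1 to 4 and at 68.6, 101, 96.9 and 113 FPKM in TbR2fl/fl 5 to 8. The groups overlapped, with FTbR2KO 2 highest and TbR2fl/fl 5 lowest, and the log2 fold change was 0.15 (SE 0.19, adjusted p = 0.834 in limma), or 0.0065 without TbR2fl/fl 5, 0.024 without FTbR2KO 2 and 0.28 without FTbR2KO 1. Pdia3, the isomerase that works with calnexin and calreticulin, ran from 192 FPKM in TbR2fl/fl 5 to 367 FPKM in FTbR2KO 2. Pdia4, which has more catalytic domains than Pdia3, averaged 87.1 ± 32.4 and 70.1 ± 14.5 FPKM (SD, n = 4 each), with 129 FPKM in FTbR2KO 2. Its log2 fold change was 0.049 without that library, 0.11 without TbR2fl/fl 5 and 0.45 without FTbR2KO 1. Creld2 and Manf, which are released from the ER under stress, spanned 17.9 to 53.7 FPKM and 18.5 to 46.1 FPKM, and both were lowest in FTbR2KO 1 and highest in FTbR2KO 2. The 5 log2 fold changes lay between 0.061 (Manf) and 0.26 (Pdia4), all above 0, and 0 of 5 passed the test. That of Pdia3 was 0.20, or 0.081 without FTbR2KO 2 and 0.079 without TbR2fl/fl 5. Of the exon bases of Manf 9.25%, and of Hsp90b1 15.7%, are shared with other genes.

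In the ERAD group, Sel1l (chromosome 12, from 91806043 to 91849157, minus strand), the adaptor that holds the ubiquitin ligase Syvn1 (HRD1) in its complex, was at 20.1, 24.6, 22 and 20.1 FPKM in FTbR2KO 1 to 4 and at 19.3, 17.6, 19.0 and 18.6 FPKM in TbR2fl/fl 5 to 8. All 4 values labelled FTbR2KO lay above all 4 controls, the 1 member with that order, against 2.52% of all genes tested. The gap between the groups was small, from 19.3 to 20.1 FPKM, and the log2 fold change was 0.21 (SE 0.085, unadjusted p = 0.0383, adjusted p = 0.571 in limma). Herpud1 (chromosome 8), a scaffold of the same complex, was at 28.4, 33.3, 40.5 and 28.5 FPKM against 25, 35.9, 42.0 and 32.7 FPKM. Its groups overlapped, with the highest value in TbR2fl/fl 7, and the log2 fold change was -0.044 (SE 0.17). Derl1 (chromosome 15), a channel-like protein of the retrotranslocation complex, was at 28.7, 38.8, 35.8 and 35.7 FPKM against 31.6, 37.2, 37.2 and 36.3 FPKM. FTbR2KO 1 was its lowest library, and the log2 fold change was -0.037 (SE 0.11).

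Syvn1 itself averaged 12.0 ± 2.17 FPKM (SD, n = 4) in the libraries labelled FTbR2KO and 12.1 ± 1.31 FPKM (SD, n = 4) in the controls. Edem1, a lectin that picks out misfolded glycoproteins, averaged 17.2 ± 2.62 and 14.7 ± 1.74 FPKM (SD, n = 4 each), with FTbR2KO 2 and 3 above all controls and TbR2fl/fl 5 lowest, and its log2 fold change of 0.21 was 0.13 without TbR2fl/fl 5 and 0.14 without FTbR2KO 3. Derl2 averaged 4.32 ± 0.502 and 4.32 ± 0.186 FPKM (SD, n = 4 each). Derl3, a relative of Derl1 that is abundant in secretory gland cells, was below the filter and was not tested, with 0.520, 0.318, 0.279 and 0.351 FPKM in FTbR2KO 1 to 4 and 0.632, 0.213, 0.172 and 0.176 FPKM in TbR2fl/fl 5 to 8. These values rest on 7 to 37 reads per library, and an exact two-sided permutation test of the group means gave p = 0.60 (n = 4 each), where the smallest p the design allows is 0.0286.

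Both genes of the translocation group had their lowest value in FTbR2KO 1. Sec61b (chromosome 4), a subunit of the channel through which new chains enter the ER, was at 22.2, 35.0, 38.0 and 38.8 FPKM in FTbR2KO 1 to 4 and at 30.2, 45.5, 38.9 and 51.7 FPKM in TbR2fl/fl 5 to 8. Of the controls, 3 exceeded every library labelled FTbR2KO and TbR2fl/fl 5 did not, with a log2 fold change of -0.31 (SE 0.21, adjusted p = 0.693 in limma) that was -0.13 without FTbR2KO 1. Ssr1, a subunit of the translocon-associated complex, averaged 21.5 ± 3.40 and 21.8 ± 3.67 FPKM (SD, n = 4 each).

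**Figure D2:**
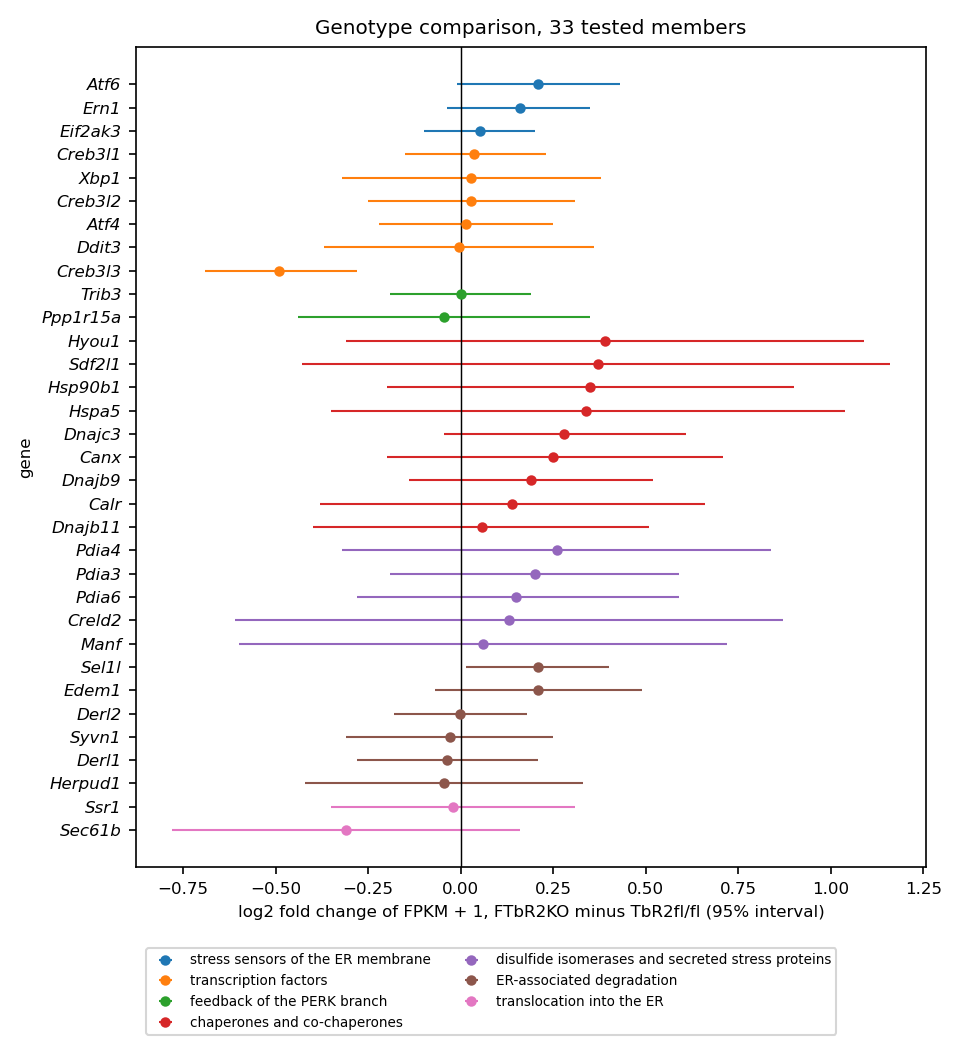
Log2 fold change of FPKM + 1, FTbR2KO minus TbR2fl/fl (horizontal axis), for the 33 tested members, with the 95% interval as a line and the colour giving the role. All intervals but those of Sel1l and Creb3l3 cover 0, and those of Sdf2l1, Creld2, Hspa5, Hyou1 and Manf are the widest.

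Set against all genes, the genotype comparison of the members was near the background in every count of calls. Of the 33 tested members, 2 had an unadjusted p under 0.05 in limma (1 of them Creb3l3, which only the controls brought past the filter), against 8.61% of all genes tested. The members' log2 fold changes were above 0 for 24 of 33, with a median of 0.061, against 48.8% of all genes and a median of -0.0045. That count changed with single libraries: without TbR2fl/fl 5, 15 of 33 lay above 0, with a median of -0.011. It was 18 without FTbR2KO 3, 20 without FTbR2KO 2 and 29 without TbR2fl/fl 7. Without FTbR2KO 1 and TbR2fl/fl 5 together, 22 of 33 lay above 0, with a median of 0.10, and 0 members passed the adjusted p.

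The members' spread between libraries was wider, at the median, than that of all genes tested. The median SD within a group, on the log2(FPKM + 1) scale, was 0.243 over the tested members and 0.156 over all genes tested, and the highest library exceeded the lowest by a median of 1.75-fold against 1.5-fold. Without FTbR2KO 1 and TbR2fl/fl 5 these medians were 0.177 against 0.128 for the SD and 1.44-fold against 1.37-fold. The members and all genes were not matched for level, and the pseudocount of 1 narrows the SD of low genes. FTbR2KO 2 was the highest library for 16 members and FTbR2KO 3 for 8, while those libraries were the highest for 15.1% and 12.2% of all genes tested. The lowest library was TbR2fl/fl 5 for 18 members and FTbR2KO 1 for 6, where all genes tested gave 20.1% and 18.7%. FTbR2KO 2 and 3 together were the 2 highest libraries for 17 of 33 members and for 9.19% of all genes tested, a pattern that was looked for after the values had been seen. Among the 6 libraries without FTbR2KO 1 and TbR2fl/fl 5 the same held for 17 members and for 15.2% of all genes tested. Each library's median deviation from the genes' own means, over the members, was -0.19, 0.19, 0.20 and -0.07 in FTbR2KO 1 to 4 and -0.30, 0.05, -0.00 and 0.04 in TbR2fl/fl 5 to 8 on the log2 scale, and over all genes tested it was between -0.03 and 0.02.

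**Figure D3:**
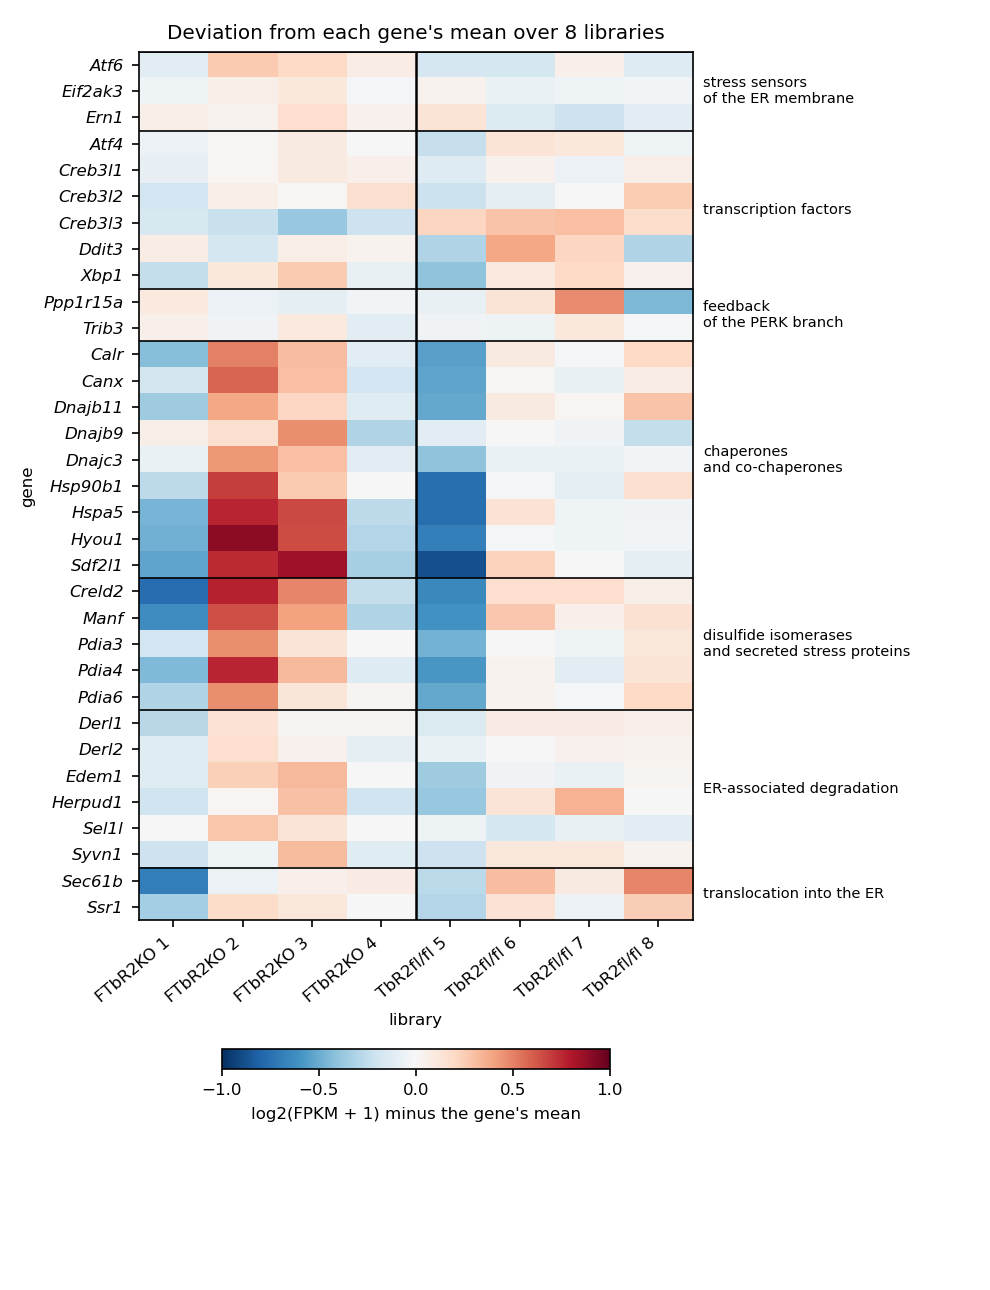
Colour gives log2(FPKM + 1) of each tested member (rows, grouped by role) minus the gene's mean over the 8 libraries (columns), red above and blue below. The chaperone, isomerase and secreted protein rows are red in FTbR2KO 2 and 3 and blue in TbR2fl/fl 5 and, except Dnajb9, in FTbR2KO 1, while sensors and most transcription factors are pale.

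The members did not share this pattern evenly. The 9 chaperones had median deviations of -0.36, 0.58, 0.31 and -0.19 in FTbR2KO 1 to 4 and of -0.55, 0.02, -0.04 and -0.03 in TbR2fl/fl 5 to 8. The 5 isomerases and secreted proteins gave -0.44, 0.65, 0.32 and -0.13, then -0.58, 0.04, -0.02 and 0.14. Without FTbR2KO 1 and TbR2fl/fl 5, in deviations from the mean of the other 6 libraries, the chaperones were at 0.46, 0.22 and -0.31 in FTbR2KO 2 to 4 and between -0.19 and -0.07 in the controls, and the isomerases and secreted proteins at 0.45, 0.15 and -0.30 and between -0.15 and -0.03. The 3 sensors stayed between -0.14 and 0.17 and the 6 transcription factors between -0.22 and 0.15 in every library. The 6 tested ERAD genes lay between these groups, with 0.16 and 0.21 in FTbR2KO 2 and 3 and -0.18 in TbR2fl/fl 5.

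Hspa5 was used as the reference for how the members varied together over the 8 libraries, with log2(FPKM + 1) values, 32 pairs and p-values from exact permutation adjusted over these pairs by the Benjamini-Hochberg method. The genotype and any quality differences of the libraries are part of these correlations, and 4 libraries of 1 genotype are too few to give a correlation of their own. Hyou1 had a Pearson's r of 0.99 with Hspa5 (adjusted exact permutation p = 7.94e-04) and a Spearman's rho of 1.00 (adjusted exact permutation p = 0.00159). Without FTbR2KO 2 and TbR2fl/fl 5, the 2 libraries farthest from the median of Hspa5, its r was 0.99. Sdf2l1 had an r of 0.99 (adjusted exact permutation p = 0.00159) and a rho of 0.95 (adjusted exact permutation p = 0.00522), and its r was 1.00 without those libraries. These proteins, like Hspa5 itself, act on newly imported chains.

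In all, 10 of 32 members reached an r of 0.9 with Hspa5, as did 1.45% of all other genes tested, and the median r was 0.76 over the members and 0.08 over those genes. The 10 were Sdf2l1, Hyou1, Canx, Pdia4, Creld2, Calr, Manf, Dnajc3, Edem1 and Hsp90b1, with rho between 0.81 (Dnajc3) and 1.00 (Hyou1). After the 2 libraries farthest from the median were left out, their r lay between 0.82 (Hsp90b1) and 1.00. Pdia3, Dnajb11 and Pdia6 followed with r of 0.90, 0.89 and 0.88, which were 0.76, 0.75 and 0.65 without those 2 libraries, so that part of their relation rested on them. Without FTbR2KO 1 and TbR2fl/fl 5, 7 of 32 members reached an r of 0.9. The share of all other genes was not computed without these libraries, so that count cannot be set against 1.45%. By adjusted exact permutation p under 0.05, 15 of 32 members passed for r and 16 of 32 for rho. The p-values were adjusted over these 32 pairs only. The share of all genes that would pass was not computed, so these counts have no background.

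Among the regulators the relation with Hspa5 was uneven. Xbp1 had an r of 0.84 (adjusted exact permutation p = 0.0215) and a rho of 0.81 (adjusted exact permutation p = 0.0436), and r was 0.87 without the 2 libraries. Atf6 had an r of 0.76 (adjusted exact permutation p = 0.0601) that was 0.52 without them, and a rho of 0.48 (adjusted exact permutation p = 0.324). Atf4 had an r of 0.67 (adjusted exact permutation p = 0.0975) and a rho of 0.67 (adjusted exact permutation p = 0.133), and r was 0.66 without them. The mRNA of Xbp1 was thus the 1 regulator among the sensors and transcription factors whose relation passed the adjusted test.

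Genes of the PERK branch below ATF4 had low values. Ddit3 had an r of 0.16, Trib3 of 0.20 and Ppp1r15a of -0.08, with adjusted exact permutation p-values of 0.741, 0.693 and 0.887. Their rho values were 0.10, -0.02 and -0.17 (adjusted exact permutation p = 0.867, 0.977 and 0.750). Ern1 gave -0.02 and Creb3l3 -0.44 (adjusted exact permutation p = 0.961 and 0.336). Creb3l3 passed the filter only through the 4 controls, so its r carries that group difference. The r of Creb3l3 was -0.17 without the 2 libraries. Sel1l, the 1 member with all FTbR2KO values above the controls, had an r of 0.60 (adjusted exact permutation p = 0.150) that was 0.31 without the 2 libraries, and a rho of 0.26 (adjusted exact permutation p = 0.613). Ddit3 and Ppp1r15a were instead high in TbR2fl/fl 6 and 7, where the list of dissociation genes described further on was high as well. In FTbR2KO 1 Ppp1r15a was at 71.0 FPKM, near its 73.0 FPKM in TbR2fl/fl 6, while that list had a median deviation of -0.12. A link between these genes and that list was not tested.

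**Figure D4:**
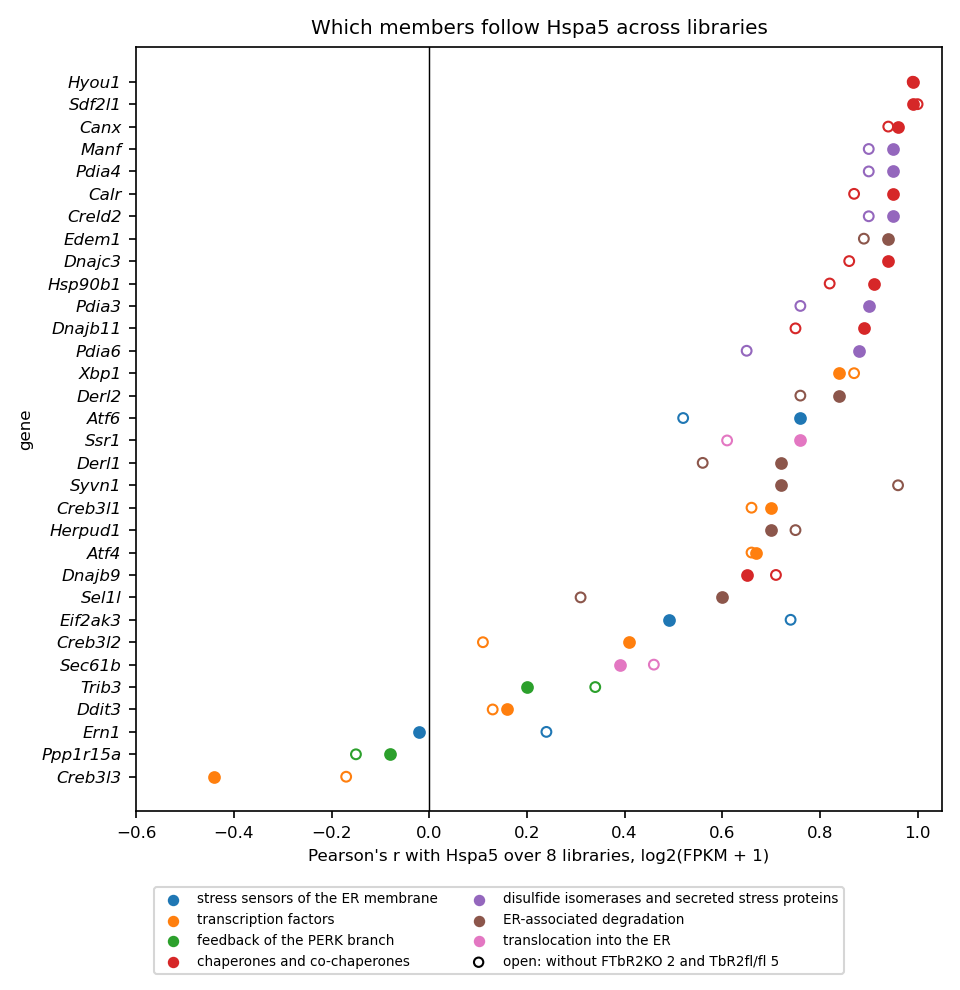
Pearson's r with Hspa5 over 8 libraries, on log2(FPKM + 1) values (horizontal axis), for the 32 other tested members, coloured by role; open circles are r without FTbR2KO 2 and TbR2fl/fl 5. Chaperones, isomerases and secreted proteins fill the top, from 0.99 downward, and Ern1, Ppp1r15a and Creb3l3 lie below 0.

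The promoter element and the relation with Hspa5 can be set side by side. The 7 tested members other than Hspa5 that hold the ER stress response element (shown above for Hsp90b1, Calr, Canx, Dnajc3, Pdia6, Creld2 and Syvn1) had an r of 0.72 to 0.96 with Hspa5, with a median of 0.94. Dnajb11 and Herpud1, which hold the shorter form, had 0.89 and 0.70. The 18 members with a promoter that holds neither form ran from -0.44 to 0.99 with a median of 0.62, and Sdf2l1, Pdia4 and Edem1 among them were at 0.94 or above. The 5 members for which no promoter was found (Atf6, Creb3l1, Derl1, Hyou1 and Manf) could not be classed. Their r ran from 0.70 to 0.99, with a median of 0.76. Genes of the unfolded protein response are often recognised by this element, so the difference is a description.

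The wider pathway, taken from lists of other genes, gave 0 called genes in any list. Of the other ER chaperones and oxidative folding genes, 10 of 24 tested were above 0 in log2 fold change (median -0.057). The 3 with the smallest p were Qsox1 (-0.22, SE 0.085), a secreted sulfhydryl oxidase, Sil1 (-0.16, SE 0.068), a nucleotide exchange factor of BiP, and Fkbp2 (-0.33, SE 0.16), a prolyl isomerase, all lower in the libraries labelled FTbR2KO, with adjusted p-values of 0.571 to 0.595 in limma. Of the other ERAD genes 8 of 21 were above 0 (median -0.03), led by Aup1 (-0.20, SE 0.07), Edem2 (-0.16, SE 0.077) and Rnf139 (0.11, SE 0.065). Of the other translocation and glycosylation genes 13 of 24 were above 0 (median 0.018), and Sec61g (-0.35, SE 0.19), which forms the channel with Sec61b, was lower on average, as Sec61b was, beside Sec63 (0.16, SE 0.10) and Ssr4 (-0.27, SE 0.19).

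Of the other sensors, proteases and regulators 9 of 20 were above 0 (median -0.0094), led by Ddrgk1 (-0.36, SE 0.12), Wfs1 (0.18, SE 0.068) and Bax (-0.30, SE 0.13), the last a cell death effector. ATF4 target genes of the integrated stress response split evenly, with 14 of 25 above 0 (median 0.024). Ddit4, an inhibitor of mTORC1 signalling, was at 31.9 to 50.1 FPKM in the libraries labelled FTbR2KO and at 46.9 to 65.4 FPKM in the controls, with a log2 fold change of -0.54 (SE 0.16, unadjusted p = 0.00734, adjusted p = 0.571 in limma). Its groups overlapped in FTbR2KO 4 and TbR2fl/fl 7. Pck2 (-0.26, SE 0.093) and Nupr1 (-0.22, SE 0.10) came next in that list. None of these lists reached the deviations of the members' chaperones in FTbR2KO 2 and 3. In FTbR2KO 2 the other chaperones and oxidative folding genes had a median deviation of 0.06 and the translocation and glycosylation genes of 0.17. In TbR2fl/fl 8 these 2 lists were at 0.13 and 0.17, above the members' chaperones at -0.03.

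Other stress programmes moved with some of the same libraries, and their part in the members' pattern was not tested. Cytosolic heat shock genes (14 tested) had median deviations of -0.40, 0.34, 0.27 and 0.25 in FTbR2KO 1 to 4 and of -0.80, 0.26, 0.06 and -0.02 in TbR2fl/fl 5 to 8, so they shared the low values of FTbR2KO 1 and TbR2fl/fl 5 with the ER chaperones but were also high in FTbR2KO 4, where the ER chaperones were at -0.19. Without FTbR2KO 1 and TbR2fl/fl 5 they were at 0.15, 0.14 and 0.09 in FTbR2KO 2 to 4 and between -0.29 and 0.01 in the controls. Of these genes 13 of 14 were above 0 in log2 fold change (median 0.25) and 0 passed the test. Dissociation and immediate-early genes (20 tested), which respond to tissue digestion and sorting, were at -0.12, 0.05, 0.00 and 0.07 and then at -0.46, 0.32, 0.37 and -0.23, thus lowest in TbR2fl/fl 5 but not high in FTbR2KO 2 and 3. Collagen folding and modification genes (17 tested), the other part of the fibroblast's secretory load, were at -0.32, 0.09, 0.01 and 0.05 and then at -0.26, 0.05, 0.05 and 0.17. Reads from mitochondrial genes made up 0.835% of the reads in TbR2fl/fl 5 and 1.09% to 1.23% in the other libraries. Summed over 6 markers of pericytes and smooth muscle, all of which reached 1 FPKM, FTbR2KO 2 and 3 stood at 73.9 and 70.7 FPKM and the other 6 libraries at 47.1 to 63.3 FPKM. The 6 markers did not share 1 order. Rgs5 was at 32.3 and 24.7 FPKM in FTbR2KO 2 and 3 and at 12.9 to 22.7 FPKM elsewhere. Cspg4 was highest in TbR2fl/fl 8 (5.95 FPKM), followed by FTbR2KO 3 and 2 (5.53 and 5.31 FPKM), with 2.83 to 3.82 FPKM in the rest. Kcnj8 was highest in FTbR2KO 3 (3.91 FPKM, with 2.46 FPKM in FTbR2KO 2). Myh11 was highest in FTbR2KO 2 (2.29 FPKM, with 1.86 FPKM in FTbR2KO 3). Abcc9 was highest in FTbR2KO 1 (7.68 FPKM). Notch3 was at 27.6 and 29.6 FPKM in FTbR2KO 2 and 3 and at 28.3 and 29.1 FPKM in TbR2fl/fl 6 and 8. The sum over 10 macrophage and monocyte markers was 9.10 to 14.3 FPKM. That over 6 cardiomyocyte markers was 2.05 to 4.50 FPKM, highest in FTbR2KO 2 and lowest in FTbR2KO 1. Of these markers only Actc1 had that order, at 2.81 FPKM in FTbR2KO 2 and 0.392 FPKM in FTbR2KO 1, and the others each peaked in another library. The sum over 5 epicardial and mesothelial markers was 31.6 FPKM in FTbR2KO 1 and 0.641 to 20.6 FPKM in the others. What part these cells have in the members' values was not tested.

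**Figure D5:**
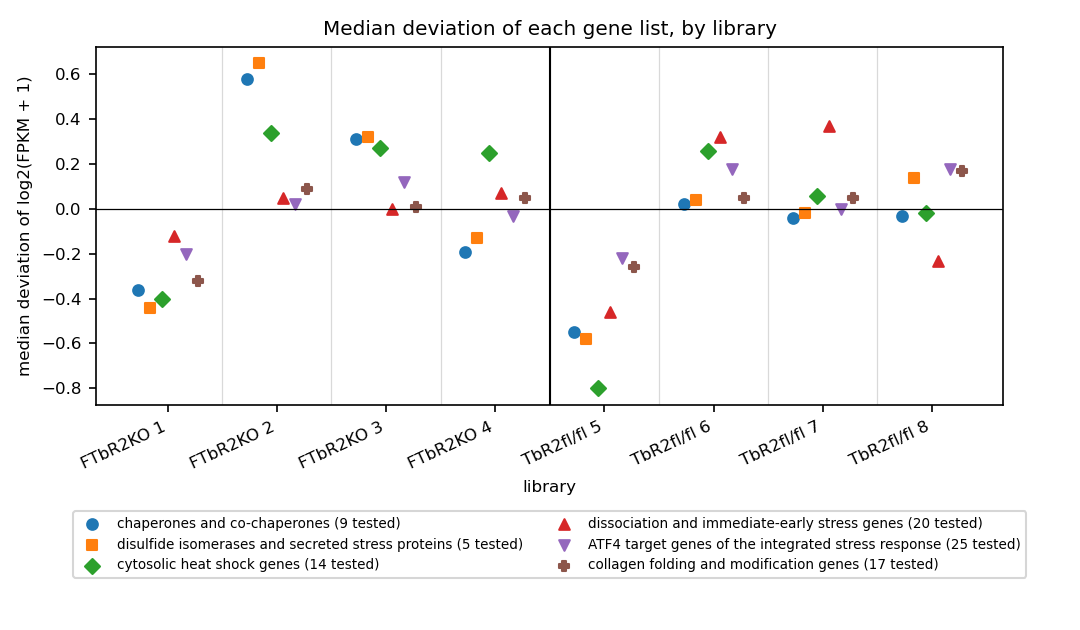
Median deviation of log2(FPKM + 1) from the genes' means (vertical axis) in each library (horizontal axis) for 6 gene lists, with the number of tested genes in the key. ER chaperones and isomerases peak in FTbR2KO 2 and 3, cytosolic heat shock genes are also high in FTbR2KO 4 and TbR2fl/fl 6, and most lists are low in FTbR2KO 1 and TbR2fl/fl 5.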

How the data were processed

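Gene expression was measured by poly(A) RNA-seq in 4 FTbR2KO and 4 TbR2fl/fl libraries, grouped by the genotype in the labels. The authors deposited 1 table of FPKM per gene, and per the submitters' processing notes CASAVA, TopHat2 2.0, Cufflinks 2.1.1, HTSeq 0.6.1 were used, with mm10 and GRCm38.p6 named as builds. Strand setting and annotation were not found in any source used here, but 98.3% of the table's genes have the coordinates of GENCODE M21. The deposited FPKM times gene length gave whole reads (within 0.01) for 100.0% of values, which put the depth at 16088616 to 28731923 reads per library.

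The 11667 genes that reached 1 FPKM in 4 or more libraries were tested with limma 3.58.1 in R 4.3.3 on log2(FPKM + 1), with a trended variance and Benjamini-Hochberg adjustment over all of them, two-sided, at an adjusted p of 0.05. Fold changes on this scale understate the change of low genes. Alternatives were a pseudocount of 0.1, no filter, a filter at 5 FPKM, median-of-ratios and quantile scaling, sample weights, limma voom on the recovered reads, each library left out in turn, and FTbR2KO 1 and TbR2fl/fl 5 left out together. The method was tested on simulated data. Values in every library are printed for the genes at the core of each branch, those whose groups do not overlap, the 3 smallest p in each direction, and members below the filter, and of each pathway list the 3 genes with the smallest p. Members, lists and this rule were chosen with earlier results of these data known. Correlations used exact permutation in scipy 1.17.1. Promoter sequences come from RefSeq (GRCm38.p6) and were searched for exact matches on both strands. Protein sequences were not analysed here.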

Additional observations from a re-analysis of the deposited data

Results flagged for a closer look

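In 4 of 68 groups of 4 libraries checked (34 members in 2 groups), 1 library lay far from the other 3, where chance flags about 1 group in 20, and all 4 were TbR2fl/fl 5. Hyou1 was at 10.4 FPKM in TbR2fl/fl 5 and at 16.7 to 17.1 FPKM in the other 3 controls. Dnajc3, the co-chaperone of BiP, was at 29.3 FPKM there and at 37.3 to 38.4 FPKM in the other controls. Derl1 was at 31.6 FPKM there and at 36.3 to 37.2 FPKM in the others. Derl3, which was too low to be tested, was instead high in TbR2fl/fl 5, at 0.632 FPKM (37 reads) against 0.172 to 0.213 FPKM (7 to 12 reads).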

How the results depend on the processing

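Under the 16 alternatives, 0 members passed an adjusted p of 0.05, and 17 of 33 tested members kept the sign of their log2 fold change in every alternative that tested them (Creb3l3, 1 of the 17, was not tested with the filter at 5 FPKM). No paired analysis was possible because the labels number the FTbR2KO libraries 1 to 4 and the controls 5 to 8, so the groups share no number, and do not say that the sample codes in the titles pair them. Over all genes, 1 passed with the filter at 5 FPKM and 2 to 8 with 1 library left out (8 without FTbR2KO 4). Of the members, 15 to 29 lay above 0 with 1 library left out (15 without TbR2fl/fl 5), with medians of -0.011 to 0.19. The sign turned for these small values, and the cause was not tested: with quantile scaling Derl1 (0.0027), Ssr1 (0.017), Ddit3 (0.03) and Trib3 (-0.0041), with median-of-ratios scaling Derl2 (5.0e-05), with voom Ddit3 (0.0062), with a pseudocount of 0.1 Trib3 (-1.9e-04), with sample weights Xbp1 (-5.9e-04), Atf4 (-0.044) and Derl2 (0.022), and without FTbR2KO 1 and TbR2fl/fl 5 Xbp1 (-0.016), Atf4 (-0.037), Derl2 (0.015) and Trib3 (-0.028). With 1 library left out the log2 fold changes that turned sign ran from -0.018 to 0.31 (Calr), -6.2e-04 to 0.069 (Creb3l1), -0.11 to 0.40 (Creld2), -0.091 to 0.049 (Derl1), -0.10 to 0.19 (Dnajb11), -0.18 to 0.064 (Herpud1), -0.20 to 0.11 (Ppp1r15a), -0.039 to 0.12 (Creb3l2), -0.14 to 0.036 (Syvn1), -0.15 to 0.28 (Manf), -0.10 to 0.11 (Xbp1), -0.059 to 0.062 (Atf4), -0.12 to 0.089 (Ssr1), -0.059 to 0.038 (Derl2), -0.10 to 0.12 (Ddit3), -0.031 to 0.037 (Trib3), -0.0067 to 0.14 (Eif2ak4) and -0.017 to 0.084 (Eif2ak1). The number of members with an r of at least 0.9 with Hspa5 was 7 to 10 with other scalings, the other pseudocount or both libraries out, and 9 to 13 with 1 library left out. The share of all genes at that r was not computed under these alternatives. FTbR2KO 2 and 3 were the 2 highest libraries for 15 to 16 members with either other scaling and 17 without FTbR2KO 1 and TbR2fl/fl 5, and TbR2fl/fl 5 the lowest for 14 to 17, with either other scaling. Depth limits Derl3 (7 to 37 reads per library) and Creb3l3 (39 to 137 reads).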

Other observations

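Outside the list, the genes whose levels followed Hspa5 most closely over the 8 libraries, by Pearson's r on log2(FPKM + 1) values as a description, included several of the early secretory pathway. Tram1, a helper of the translocation channel, had an r of 0.975 and ran from 44.2 FPKM in TbR2fl/fl 5 to 73.0 FPKM in FTbR2KO 2. Srp72, a subunit of the signal recognition particle that brings ribosomes to the ER, had an r of 0.973. Copb1 and Arcn1, subunits of the COPI coat that carries proteins back from the Golgi to the ER, had r of 0.970 and 0.967. The highest values belonged to Mob1a (0.989), Eif4e (0.983), the cap-binding initiation factor, and Capza1 (0.981), an actin-capping subunit. These genes were picked as the highest of all genes tested, so their values show no more than the order.

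Genes outside the list that hold the ER stress response element in the same promoter window were too few to show whether they share the members' pattern. Of 28 such genes 8 were tested. FTbR2KO 2 and 3 were the 2 highest libraries for 0 of the 8, against 9.19% of all genes tested. TbR2fl/fl 5 was the lowest library for 1 of them, against 20.1% of all genes tested. Their median r with Hspa5 was -0.31, against 0.08 over all other genes tested. The highest r was that of Alg12, a mannosyltransferase of the ER, at 0.83, and its start site lies 328 bases from that of Creld2 on the opposite strand. Alg12 was highest in FTbR2KO 2 (5.72 FPKM) and lowest in TbR2fl/fl 5 (3.89 FPKM), with FTbR2KO 3 (5.13 FPKM) just below TbR2fl/fl 6 (5.15 FPKM). By limma 0 of the 8 passed an adjusted p of 0.05.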
